A study of Mus musculus with 12 samples.

Results

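The Bcl2 family apoptosis genes described here were the 10 genes *Bcl2*, *Bcl2l1*, *Mcl1*, *Bax*, *Bak1*, *Bbc3*, *Pmaip1*, *Bcl2l11*, *Bid* and *Bad*, chosen by symbol from the 52962 genes of the table. RNA-seq was performed on β-cells and non-β-cells that had been sorted from islets of female NOD mice, an inbred strain in which autoimmunity destroys β-cells. Both fractions were collected at 4 and at 8 weeks of age, taken as an earlier and a later stage of the entry of leukocytes into islets. This gave 4 groups of 3 samples, each of which was a pool of 3 mice per the study's legends, and the labels give no transgene or treatment for any group. Islets had been cultured overnight, dispersed with trypsin and sorted on endogenous fluorescence after removal of CD45-positive cells, so leukocytes were gated out and every sample had passed through dissociation and a sorter. Total estimated counts ranged from 13755106 to 27040652 per sample.

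Proteins of the Bcl2 family control whether the outer membrane of mitochondria opens and releases cytochrome c, the step that commits most cells to the intrinsic route of apoptosis. Anti-apoptotic members (encoded here by *Bcl2*, *Bcl2l1* and *Mcl1*) hold the effectors *Bax* and *Bak1* in check, and BH3-only members (*Bbc3* or Puma, *Pmaip1* or Noxa, *Bcl2l11* or Bim, *Bid*, *Bad*) relay stress by neutralising the anti-apoptotic proteins or by activating the effectors. In islets this pathway is known for its part in β-cell death under cytokines and endoplasmic reticulum stress, and many of its steps, such as Bid cleavage and Bad phosphorylation, act on protein and leave no trace in transcript counts.

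The promoter sequences of 3 genes are shown: *Bax* and *Bbc3*, which were lower at 8 weeks, and *Bcl2l11*, which was lower in β-cells. No result rests on these sequences. *Bax* and *Bcl2l11* were the only members with a motif match among the 9 member windows read. *Bcl2* and *Mcl1*, also lower in β-cells at both ages, had no match and are not shown. The sequences are the 250 bases before the RefSeq start in build GRCm38.p6, read 5′ to 3′ on the strand of the gene. *Bax* was taken from chr7:45466899-45467148 on the minus strand, *Bbc3* from chr7:16309333-16309582 on the plus strand (inside the annotated gene, after an earlier start), and *Bcl2l11* from chr2:128125788-128126037 on the plus strand. Capitals mark a match to 1 decamer of the p53 response element, which is not a full element, in *Bax*. In *Bcl2l11* they mark a match to the FOXO motif TGTTTAC on the opposite strand.
Bax: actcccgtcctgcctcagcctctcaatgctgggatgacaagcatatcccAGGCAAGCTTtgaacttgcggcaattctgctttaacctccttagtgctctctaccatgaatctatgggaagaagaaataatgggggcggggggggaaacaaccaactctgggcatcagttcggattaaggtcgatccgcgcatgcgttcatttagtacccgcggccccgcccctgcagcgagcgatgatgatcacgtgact
Bbc3: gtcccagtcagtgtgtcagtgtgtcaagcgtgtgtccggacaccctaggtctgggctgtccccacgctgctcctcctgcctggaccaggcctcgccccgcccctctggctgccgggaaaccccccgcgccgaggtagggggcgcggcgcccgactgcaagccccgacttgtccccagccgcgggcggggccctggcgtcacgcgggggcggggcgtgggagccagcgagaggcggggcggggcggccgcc
Bcl2l11: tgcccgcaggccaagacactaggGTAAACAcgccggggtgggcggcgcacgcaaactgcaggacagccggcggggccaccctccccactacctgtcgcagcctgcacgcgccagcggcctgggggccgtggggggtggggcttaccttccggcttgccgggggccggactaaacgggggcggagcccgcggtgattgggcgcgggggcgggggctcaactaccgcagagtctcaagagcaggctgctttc
The decamer stood 201 bases before the *Bax* start and was present, on either strand, in 7.16% of 27025 RefSeq promoter windows of the same length. The FOXO match began 227 bases before the *Bcl2l11* start, and 3.06% of all windows held that motif. The *Bbc3* window held none of the 4 motifs searched, which also included the STAT element TTCNNNGAA (7.14% of windows) and the amino acid response element TGATGNAA (3.53%), on both strands. None of the other windows read for the members held a match, which says only that those letters were not in those bases. GC content was 54.0% for *Bax*, 76.4% for *Bbc3* and 72.0% for *Bcl2l11*, against a median of 52% over all windows.

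Sorting separated the labelled cell types. Summed β-cell markers ranged from 47400 to 82500 CPM (counts per unit of library size, adjusted by TMM, a correction for library composition) in β-cells at 4 weeks and from 109000 to 114000 at 8 weeks, against 3060 to 6020 in non-β-cells. Summed α-cell markers ranged from 107000 to 137000 CPM in non-β-cells, and in β-cells from 5880 to 9650 at 4 weeks and from 1760 to 2820 at 8 weeks. Summed delta- or PP-cell markers ranged from 13200 to 20700 CPM in non-β-cells and from 642 to 1460 in β-cells. Of 17 leukocyte markers between 2 and 8 were at 0 in a group, and *Ptprc*, which encodes CD45, had a group mean of at most 0.454 CPM. Their sum ranged from 52.4 to 53.7 CPM in β-cells at 4 weeks and from 71 to 78.1 at 8 weeks, against 8.86 to 21.4 in non-β-cells. The 2 that passed the filter on low counts were *Cd79a* and *Cd68*, a lysosomal gene of macrophages that made up most of these sums (48.8 and 69.6 CPM in β-cells of 4 and 8 weeks). The 4-week samples numbered 3 stood apart from their groups on the third principal component (7.5% of variance), with β-cell replicate 3 at 62.9 against 6.7 and 5.9 and non-β-cell replicate 3 at 32.7 against -17.5 and -56.4. Each member result that rests on them is given with and without both samples where the call or the direction changed.

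All 10 members passed the filter of more than 1 CPM in at least 3 samples, which left 15598 genes. Differences are log2 changes from limma-voom over all 12 samples, with a standard error (SE), a 95% interval and a p-value adjusted by Benjamini-Hochberg over all 15598 genes, and a gene was called changed at an adjusted p under 0.05. *Pmaip1* passed the filter only through non-β-cells, chiefly the 8-week samples, so it had to differ between groups to be tested at all. The p-values measure the spread between these pools.

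**Figure D1:**
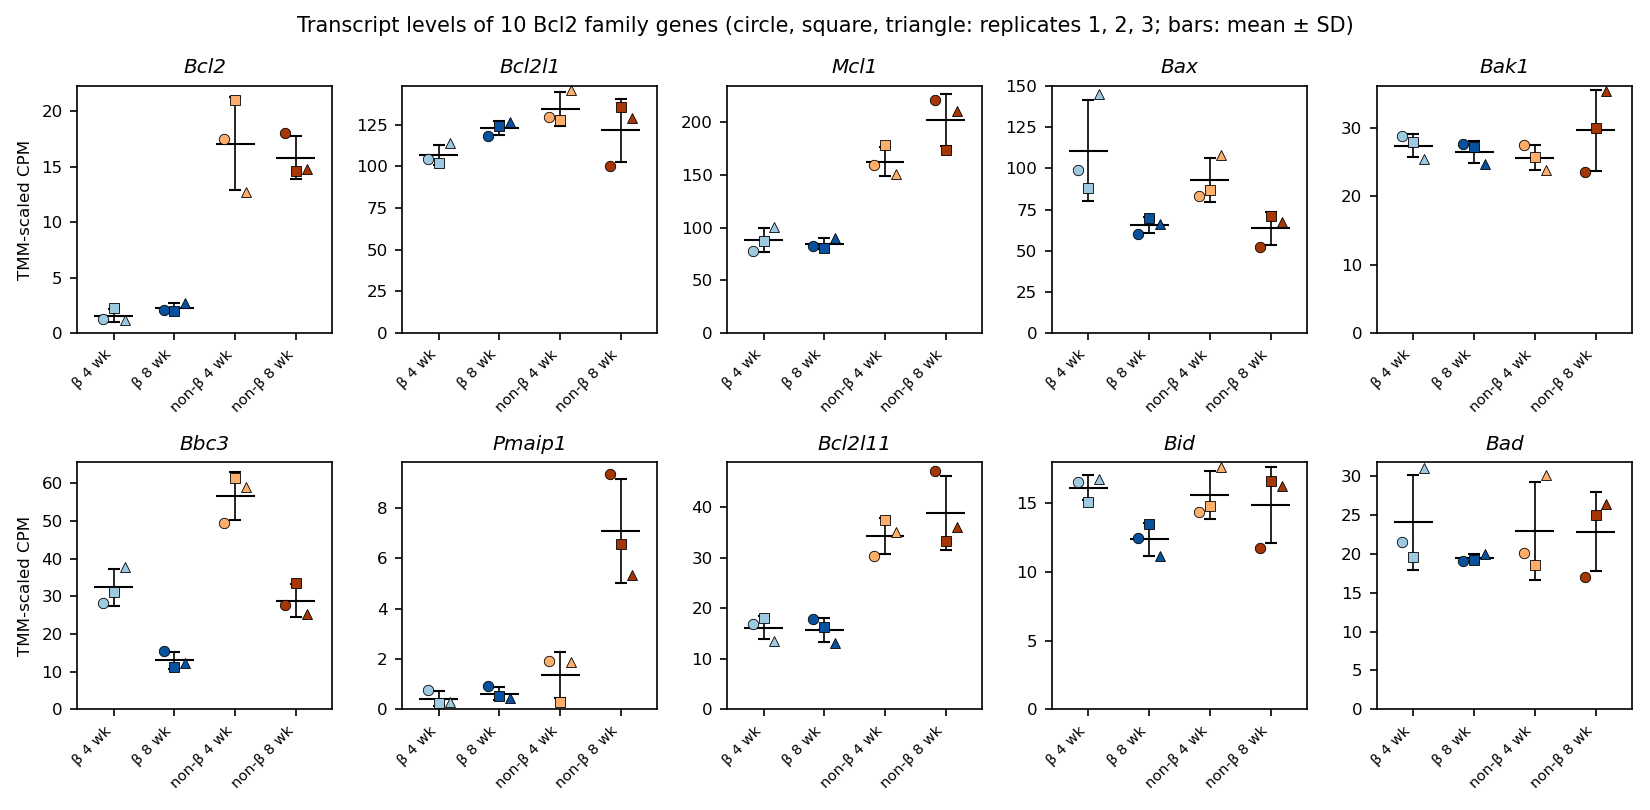
TMM-scaled CPM (vertical axes, from 0) of the 10 genes in the 4 groups, with circles, squares and triangles for replicates 1, 2 and 3 and bars for the mean ± SD (n = 3). *Bcl2*, *Mcl1* and *Bcl2l11* separate the fractions at both ages, *Bbc3* falls with age in both fractions, and *Pmaip1* reaches 5.34 to 9.35 CPM in non-β-cells at 8 weeks alone.

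Among the anti-apoptotic genes, *Bcl2* and *Mcl1* had lower levels in β-cells at both ages, whereas *Bcl2l1* (Bcl-xL) was lower in β-cells at 4 weeks by a smaller difference and overlapped between the fractions at 8 weeks. None of these 3 genes passed the threshold with age in either fraction with limma-voom over all samples, and the alternatives that called one are given with its values. *Bcl2*, the founding member of the family (chromosome 1, 106538178 to 106714274, GRCm38, minus strand), measured 1.27, 2.22 and 1.19 CPM in β-cells at 4 weeks and 2.08, 1.96 and 2.73 at 8 weeks. In non-β-cells it measured 17.5, 21.04 and 12.7 CPM at 4 weeks and 18.1, 14.6 and 14.8 at 8 weeks. Every β-cell sample was below every non-β-cell sample, and the ages overlapped within each fraction. The log2 difference between β-cells and non-β-cells was -3.43 (SE 0.397, adjusted p = 1.61e-05) at 4 weeks and -2.82 (SE 0.323, adjusted p = 1.18e-05) at 8 weeks. Its age change was 0.53 in β-cells (95% interval -0.50 to 1.56), where the estimated counts were 25.0 to 67.5 per sample, and -0.07 in non-β-cells (interval -0.48 to 0.33). Transcripts of an opposite-strand gene, *D630008O14Rik*, overlap *Bcl2* exons, and whether the counting used strand is not given in the sources used here.

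*Mcl1*, a short-lived guard of the mitochondrial membrane (chromosome 3, 95658788 to 95663176, plus strand), measured 77.9, 87.0 and 100.5 CPM in β-cells at 4 weeks and 82.3, 81.0 and 90.5 at 8 weeks. The non-β-cell samples were at 159, 178 and 151 CPM at 4 weeks and at 221.5, 174 and 210.4 at 8 weeks. The lowest non-β-cell sample was above the highest β-cell sample, and the 2 ages of non-β-cells overlapped through replicate 2 of each. β-cells were lower by a log2 difference of -0.88 at 4 weeks (SE 0.123, adjusted p = 8.18e-05) and of -1.25 at 8 weeks (SE 0.123, adjusted p = 3.07e-06). With age *Mcl1* differed by -0.06 in β-cells (interval -0.33 to 0.21, and 0.03 without the samples numbered 3) and by 0.31 in non-β-cells (interval 0.05 to 0.57, adjusted p = 0.108). The non-β-cell value passed the threshold only without 8-week replicate 2 among all alternatives run (0.42, adjusted p = 0.0465).

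*Bcl2l1* (chromosome 2, 152780668 to 152831728, minus strand), which encodes the guard Bcl-xL, ranged from 99.99 to 146 CPM over all 12 samples. Its 4-week values were 104, 102 and 114 CPM for β-cells and 129.5, 128 and 146 for non-β-cells. At 8 weeks they were 118, 124 and 127 CPM in β-cells and 99.99, 136 and 129 in non-β-cells. The fractions did not overlap at 4 weeks and overlapped at 8 weeks. β-cells were lower at 4 weeks by a log2 difference of -0.33 (SE 0.117, adjusted p = 0.0326), a call that was lost in 6 of 17 alternatives, with adjusted p up to 0.103. Those 6 were the fit with no filter on low counts, the fit of the compared groups alone, and the fits without β-cell replicate 1, without β-cell replicate 2, without non-β-cell replicate 1 and without non-β-cell replicate 3. At 8 weeks the difference was 0.04 (interval -0.22 to 0.29). With age all β-cell samples were higher than at 4 weeks (0.21, interval -0.04 to 0.46, adjusted p = 0.251), a value that passed the threshold with sample quality weights (0.24, adjusted p = 0.0187) and in no other of the 17 alternatives.

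Of the effectors, *Bax* was lower at 8 weeks than at 4 weeks in β-cells, and *Bak1* was level across the 4 groups. *Bax* (chromosome 7, 45461697 to 45466898, minus strand) encodes a cytosolic protein that inserts into the mitochondrial membrane and forms pores when activated. It measured 99.1, 88.0 and 145.5 CPM in β-cells at 4 weeks and 60.3, 70.2 and 66.0 at 8 weeks. In non-β-cells it measured 83.5, 86.9 and 108 CPM at 4 weeks and 52.2, 70.8 and 67.7 at 8 weeks. Every 8-week sample was below every 4-week sample of its fraction, β-cell replicate 3 at 4 weeks was the highest of all 12, and the fractions overlapped at each age.

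The age change of *Bax* was -0.73 in β-cells (SE 0.179, interval -1.11 to -0.34, adjusted p = 0.0143). Without both 4-week samples numbered 3 it was -0.51 with an adjusted p of 0.00744, and without β-cell 8-week replicate 1 it was -0.67 with an adjusted p of 0.0584, the only alternative of 17 that ended the call. In non-β-cells the age change was -0.56 (SE 0.184, interval -0.95 to -0.16, adjusted p = 0.0561), just outside the threshold, and 6 of 17 alternatives placed it inside (adjusted p from 0.019 to 0.205 over all of them), among them the fit without both 4-week samples numbered 3 (-0.45, adjusted p = 0.019). The difference between the 2 age changes was -0.17 (interval -0.72 to 0.39, adjusted p = 0.789). Between fractions *Bax* differed by 0.23 at 4 weeks (interval -0.15 to 0.61, adjusted p = 0.294) and by 0.07 at 8 weeks (interval -0.34 to 0.47). The 4-week difference passed the threshold when same-numbered samples were blocked (0.24, adjusted p = 0.0366). The annotated gene *Gm45808* shares exons with *Bax* on the same strand, so reads from the 2 cannot be fully told apart.

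*Bak1* (chromosome 17, 27019810 to 27029009, minus strand), the effector that resides in the mitochondrial membrane, ranged from 23.6 to 35.4 CPM over all 12 samples, and every pair of groups that was compared overlapped. Its age change was -0.05 in β-cells (interval -0.36 to 0.26) and 0.18 in non-β-cells (interval -0.14 to 0.49). β-cells differed from non-β-cells by 0.09 at 4 weeks (interval -0.22 to 0.40) and by -0.14 at 8 weeks (interval -0.45 to 0.18). Exons of *Ggnbp1* overlap *Bak1* on the opposite strand.

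Among the BH3-only genes, *Bbc3* fell with age in both fractions, *Pmaip1* rose with age in non-β-cells, and *Bbc3* and *Bcl2l11* were lower in β-cells at both ages. *Bbc3* (chromosome 7, 16308393 to 16318205, plus strand) encodes Puma, a potent BH3-only protein whose gene is a classical p53 target. It measured 28.2, 31.2 and 37.8 CPM in β-cells at 4 weeks and 15.6, 11.3 and 12.2 at 8 weeks. In non-β-cells it measured 49.4, 61.3 and 59.1 CPM at 4 weeks and 27.6, 33.6 and 25.2 at 8 weeks. The groups of each age and each fraction that were compared did not overlap, and only 4-week β-cells and 8-week non-β-cells shared a range. *Bbc3* fell by 1.33 on the log2 scale in β-cells (SE 0.175, interval -1.71 to -0.95, adjusted p = 0.000244) and by 0.99 in non-β-cells (SE 0.153, interval -1.32 to -0.66, adjusted p = 0.000558). Both calls held in all 17 alternatives, which included leaving out both 4-week samples numbered 3 (-1.22 and -0.95). The difference between the 2 age changes was -0.34 (interval -0.84 to 0.16, adjusted p = 0.482). Against non-β-cells, *Bbc3* was lower in β-cells, with a log2 difference of -0.80 at 4 weeks (SE 0.147, adjusted p = 0.000661) and of -1.14 at 8 weeks (SE 0.181, adjusted p = 0.000186).

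*Pmaip1* (chromosome 18, 66458533 to 66465565, plus strand) encodes Noxa, which binds the Mcl1 protein. It measured 0.763, 0.238 and 0.275 CPM in β-cells at 4 weeks and 0.925, 0.528 and 0.441 at 8 weeks. Non-β-cells were at 1.91, 0.294 and 1.87 CPM at 4 weeks and at 9.35, 6.57 and 5.34 at 8 weeks. The 3 non-β-cell samples at 8 weeks were above all other samples, and the remaining 9 rested on 6 to 50 counts each. The age change in non-β-cells was 2.68 (SE 0.558, interval 1.48 to 3.89, adjusted p = 0.00467), and it was 1.85 (adjusted p = 0.0077) without 4-week replicate 2, which had 6 counts. As *Pmaip1* passed the filter only through non-β-cells, chiefly those of 8 weeks, its p-values describe the fit and are no independent support for a difference. In β-cells it was 0.68 with an interval from -1.48 to 2.84, so a change was not detectable at this depth. The difference between the 2 age changes did not pass the threshold (-2, interval -4.47 to 0.47, adjusted p = 0.38). β-cells were lower than non-β-cells at 8 weeks by a log2 difference of -3.54 (SE 0.661, adjusted p = 0.000672) and at 4 weeks by -1.54 (interval -3.56 to 0.48, adjusted p = 0.189). The 4-week value passed the threshold without non-β-cell replicate 2 (-2.33, adjusted p = 0.0153) and with DESeq2 (-1.71, adjusted p = 0.0266).

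Summed markers of other cell types were also higher in the non-β-cell samples in which *Pmaip1* was highest. The 8 endothelial markers summed to 49.8 to 93.8 CPM in 4-week non-β-cells and to 388 to 1060 in 8-week ones, and the 9 mesenchymal markers to 107 to 308 and to 697 to 1090. In β-cells the endothelial sums were 6.86 to 16.1 CPM at 4 weeks and 12.9 to 16.4 at 8 weeks, and the mesenchymal sums were 4.36 to 15.7 and 26.6 to 54.7, without overlap. All of these markers passed the filter and none was at 0 in any group. Summed acinar markers were also higher at 8 weeks (34.3 to 99.6 against 224 to 913 CPM in non-β-cells, and 109 to 234 against 509 to 1070 in β-cells), as were duct markers (629 to 821 against 2000 to 2220, and 865 to 1190 against 1680 to 1810). In β-cells, where *Bax* and *Bbc3* were lower at 8 weeks, the summed α-cell markers were lower too (5880 to 9650 against 1760 to 2820 CPM), and the leukocyte and mesenchymal sums were higher. The part of these cell types in any of the age changes was not tested, and in sorted bulk samples fewer cells of a type and less RNA per cell cannot be told apart.

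*Bcl2l11* (chromosome 2, 128126038 to 128162547, plus strand) encodes Bim, which binds all anti-apoptotic members. It measured 17.0, 18 and 13.6 CPM in β-cells at 4 weeks and 17.8, 16.3 and 13.2 at 8 weeks. Non-β-cells were at 30.4, 37.5 and 35.1 CPM at 4 weeks and at 47.1, 33.3 and 36.2 at 8 weeks. The fractions were fully separate and the ages overlapped in each. The log2 difference between β-cells and non-β-cells was -1.08 at 4 weeks (SE 0.173, adjusted p = 0.000247) and -1.32 at 8 weeks (SE 0.172, adjusted p = 3.7e-05). The age change was -0.05 in β-cells (interval -0.45 to 0.36) and 0.19 in non-β-cells (interval -0.14 to 0.53).

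*Bid* (chromosome 6, 120891930 to 120916853, minus strand), which caspase-8 cleaves to link death receptors with mitochondria, ranged from 11.1 to 17.6 CPM. In β-cells it measured 16.5, 15.1 and 16.7 CPM at 4 weeks and 12.4, 13.5 and 11.1 at 8 weeks, so the ages did not overlap. That change of -0.38 (interval -0.73 to -0.03) had an adjusted p of 0.125 and was not called, and in non-β-cells the age change was -0.11 (interval -0.46 to 0.25). *Bad* (chromosome 19, 6941861 to 6951899, plus strand), whose protein is inactivated by survival kinases, ranged from 17.1 to 31.0 CPM, with both 4-week samples numbered 3 the highest of their fractions at 31.0 and 30.2. Its age change was -0.27 in β-cells (interval -0.75 to 0.20) and -0.02 in non-β-cells (interval -0.51 to 0.47, and 0.18 without those samples). Neither gene differed between the fractions past the threshold, with differences between -0.22 and 0.07 and interval ends between -0.67 and 0.55. With sample quality weights both passed it at 8 weeks (*Bid* -0.33, adjusted p = 0.0383, and *Bad* -0.32, adjusted p = 0.0482). Exons of *Bcl2l13* overlap *Bid*, and exons of *Gpr137* overlap *Bad*, on the opposite strand.

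**Figure D2:**
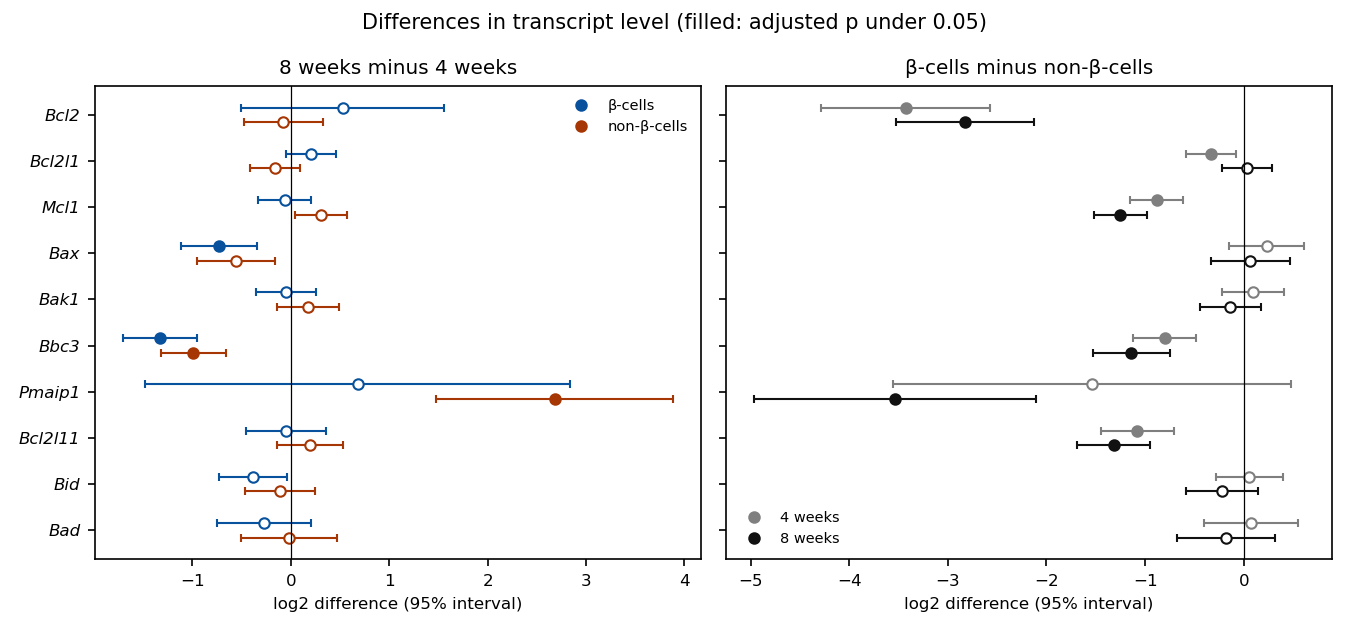
Log2 differences of the 10 genes with 95% intervals, as 8 minus 4 weeks in each fraction (left) and as β-cells minus non-β-cells at each age (right); filled points have an adjusted p under 0.05. *Bax* and *Bbc3* in β-cells and *Bbc3* and *Pmaip1* in non-β-cells are filled on the left, and all 10 filled points on the right lie below 0.

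Counted over the family, 2 of 10 members were called in the age comparison of β-cells, both lower, against 17.9% of all tested genes in either direction and 9.35% lower. In non-β-cells 2 of 10 were called, 1 in each direction, against 16.4% (11.6% higher and 4.8% lower). Both shares are near those of all genes. The 2 ages did not overlap for 4 of 10 members in β-cells and for 3 of 10 in non-β-cells, where 40.3% and 32.8% of all tested genes did not. The fractions did not overlap for 5 members at each age, against 53.1% of all tested genes at 4 weeks and 64.9% at 8 weeks. Between fractions 5 of 10 members were called at 4 weeks and 5 of 10 at 8 weeks, against 48.5% and 49.2% of all genes, so the number was again close to that of other genes. All of the called fraction differences were lower in β-cells, while genes lower in β-cells made up 23.7% of tested genes at 4 weeks and 25.6% at 8 weeks, and genes higher in β-cells 24.9% and 23.6%. The 4 genes *Bcl2*, *Mcl1*, *Bbc3* and *Bcl2l11* were called at both ages, *Bcl2l1* at 4 weeks and *Pmaip1* at 8 weeks. The counts at 8 weeks and with age in non-β-cells include *Pmaip1*, which passed the filter only through non-β-cells. The median member difference between fractions was -0.57 at 4 weeks and -0.68 at 8 weeks, against 0.00 and 0.01 over all tested genes. The median member age change was -0.05 in both fractions, against 0.02 (β-cells) and 0.01 (non-β-cells) over all tested genes.

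No member was called for a difference between the age change of β-cells and that of non-β-cells with limma-voom, where 5.13% of all tested genes were called, and none with edgeR or DESeq2. At an unadjusted p under 0.05 there was 1 member, *Bcl2l1*, with 0.37 (interval 0.01 to 0.72, adjusted p = 0.251). The next was *Mcl1* with -0.37 (interval -0.74 to 0.01, adjusted p = 0.274). The age comparisons and the fraction comparisons share samples, so the calls of 1 are not independent of those of the other.

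The fraction differences stood beside a wide difference in transcripts that tissue handling can induce. Whether handling raised them here was not tested. Summed CPM of 9 such genes ranged from 1550 to 1790 in β-cells at 4 weeks and from 1940 to 2360 at 8 weeks, and in non-β-cells from 14100 to 16000 and from 14900 to 17400. Immediate early genes such as *Fos* and *Egr1* made up most of the non-β-cell sums (*Egr1* 4360 and 3610 CPM, against 245 and 373 in β-cells). The heat shock genes *Hspa1a* and *Hspa1b* went the other way at 4 weeks, with means of 285 and 470 CPM in β-cells against 40.9 and 42.9 in non-β-cells, and at 8 weeks they were at 224 and 244 in β-cells against 608 and 664. Their part in the lower *Bcl2*, *Mcl1*, *Bbc3* and *Bcl2l11* of β-cells was not tested.

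To compare the genes with each other, estimated counts were divided by the annotated exon length of each gene and scaled to the same total per sample (level per length). *Bax* had the highest level in 3 of the 4 groups, and *Mcl1* in non-β-cells at 8 weeks. In β-cells at 4 weeks the order ran from *Bax* (197 ± 23.7, SD, n = 3) through *Mcl1* (73.5 ± 6.00) and *Bcl2l1* (66.5 ± 5.75), which overlapped each other, to *Bbc3* (43.2 ± 3.00). Below these, *Bak1* (32.9 ± 6.34) overlapped *Bad* (26.3 ± 2.61), followed by *Bid* (13.0 ± 1.45) and *Bcl2l11* (5.87 ± 1.57). *Bcl2* (0.499 ± 0.232) and *Pmaip1* (0.456 ± 0.341) were last and overlapped, so of the 3 anti-apoptotic members *Mcl1* and *Bcl2l1* made up nearly all transcripts in β-cells.

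In β-cells at 8 weeks *Bax* (111 ± 6.75) still led, *Bcl2l1* (71.5 ± 1.68) and *Mcl1* (65.9 ± 3.93) overlapped, and *Bbc3* (16.4 ± 3.11) had dropped below *Bak1* (29.3 ± 2.02) and overlapping *Bad* (20.2 ± 0.485). In non-β-cells *Bax* (161 ± 10.9) and *Mcl1* (131 ± 19.2) led without overlap at 4 weeks, ahead of *Bcl2l1* (80.2 ± 0.383) and *Bbc3* (73.1 ± 8.55), which overlapped. At 8 weeks the order there was *Mcl1* (158 ± 29.0), *Bax* (106 ± 9.79) and *Bcl2l1* (69.9 ± 6.45), with *Bcl2* (4.62 ± 0.969) lowest and overlapping *Pmaip1* (7.01 ± 2.64). With the mean transcript length in place of exon length, *Bax* led in all 4 groups and *Bcl2l1* came before *Mcl1* in β-cells and in 4-week non-β-cells, so the order of these 3 depends on the length used.

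**Figure D3:**
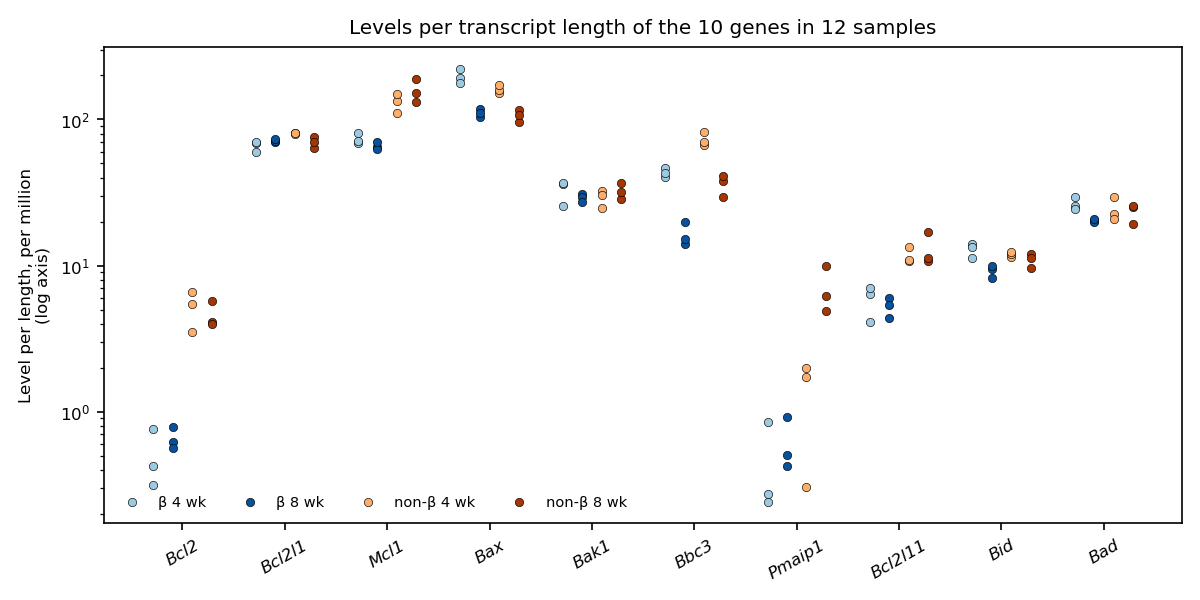
Level per length (estimated counts over annotated exon length, scaled to the same total in each sample, log axis) of the 10 genes, with 1 point per sample. *Bax* points reach 223 in β-cells at 4 weeks, *Bcl2* lies below 1 in every β-cell sample, and *Pmaip1* spans from 0.243 to 9.96.

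Summed by class on this scale, transcripts of the 3 anti-apoptotic members in 4-week and 8-week β-cells were 140.5 ± 10.3 and 138 ± 5.30, and those of 4-week and 8-week non-β-cells 216.5 ± 20.6 and 232 ± 23.5 (SD, n = 3 in each). Effector transcripts were 229.7 ± 17.7 and 139.9 ± 6.25 in β-cells and 190.0 ± 6.96 and 138.7 ± 12.2 in non-β-cells. The 5 BH3-only genes summed to 88.9 ± 2.16 and 51.7 ± 4.12 in β-cells, and to 122.5 ± 8.30 and 90.4 ± 6.91 in non-β-cells. Sums of effectors and of BH3-only genes were lower at 8 weeks in every sample of each fraction than at 4 weeks, and the anti-apoptotic sums of the 2 ages overlapped. These sums follow the most abundant gene of each class and were given no test.

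The ratio of effector to anti-apoptotic level in 4-week and 8-week β-cells was 1.65 ± 0.244 and 1.01 ± 0.0702, and in non-β-cells 0.885 ± 0.114 and 0.605 ± 0.110. The ratio of BH3-only to anti-apoptotic level was 0.634 ± 0.0344 and 0.375 ± 0.0381 in β-cells, and 0.569 ± 0.0650 and 0.392 ± 0.0490 in non-β-cells. Both ratios were lower in each 8-week sample than in any 4-week sample of the same fraction. With mean transcript length that separation held, but the values moved. The BH3-only ratio was then 0.712 and 0.4215 in 4-week and 8-week β-cells, and 0.678 and 0.495 in non-β-cells. The effector ratio of 8-week β-cells was then 0.938.

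The class sums hold the 10 members only, and *Bcl2l2* (Bcl-w), a further anti-apoptotic gene, was higher in β-cells. It measured 144 ± 8.51 and 159 ± 3.13 CPM in 4-week and 8-week β-cells, against 93.9 ± 4.07 and 87.8 ± 0.322 in non-β-cells, a log2 difference of 0.61 at 4 weeks (SE 0.0851, adjusted p = 7.83e-05) and of 0.86 at 8 weeks (SE 0.0861, adjusted p = 3.75e-06). With *Bcl2l2* added, a choice made after seeing the data, anti-apoptotic levels per length were 233 ± 27.6 and 233 ± 6.73 in β-cells and 274.5 ± 27.0 and 284 ± 27.2 in non-β-cells, and the fractions overlapped at 4 weeks. The ratio of effectors to this sum was 1.00 ± 0.200 and 0.601 ± 0.0421 in β-cells and 0.699 ± 0.0939 and 0.493 ± 0.0864 in non-β-cells. The ratio of BH3-only genes to it was 0.384 ± 0.0419 and 0.222 ± 0.0184 in β-cells and 0.449 ± 0.0542 and 0.3196 ± 0.0365 in non-β-cells, so that at 4 weeks β-cells had the higher mean without *Bcl2l2* and the lower one with it. Both ratios remained lower in each 8-week sample than in any 4-week sample of the same fraction.

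The ratio of *Bax* to *Bcl2* was 464 ± 238 and 172 ± 33.3 in β-cells, and 33.7 ± 13.7 and 23.9 ± 6.17 in non-β-cells, with individual β-cell samples from 141.5 to 708, where *Bcl2* rested on 25.0 to 67.5 counts. With mean transcript length the *Bax* to *Bcl2* ratio of β-cells at 8 weeks was 230.1 and that of non-β-cells 31.8. No test was made of these ratios, which hold transcripts and not proteins.

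**Figure D4:**
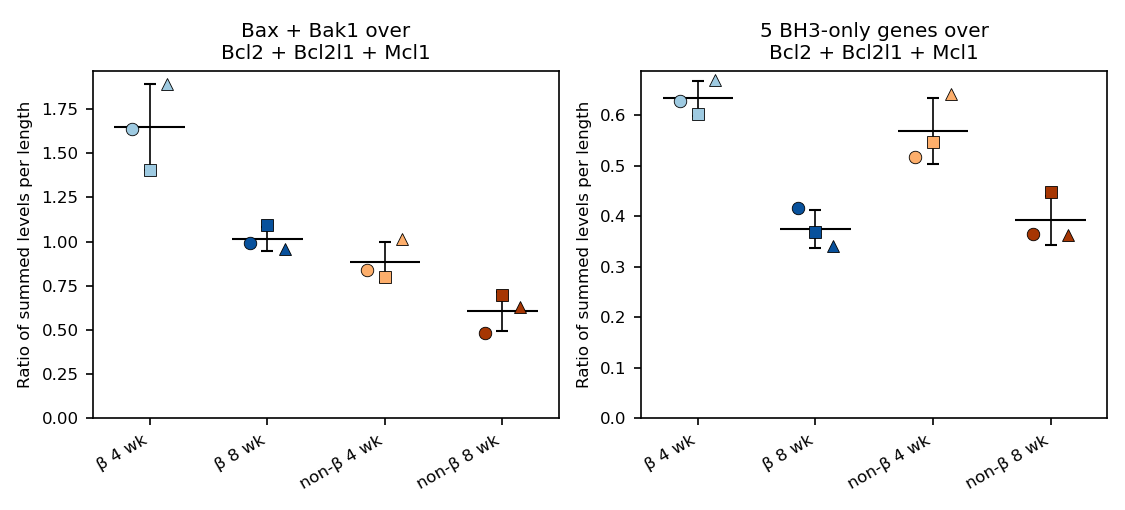
Ratios of summed levels per length by class (vertical axes, from 0) in the 4 groups, with circles, squares and triangles for replicates 1, 2 and 3 and bars for the mean ± SD (n = 3). Effectors over anti-apoptotic genes go from 1.65 to 1.01 in β-cells and from 0.885 to 0.605 in non-β-cells, and BH3-only over anti-apoptotic genes from 0.634 to 0.375 and from 0.569 to 0.392.

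For each member, the gene with the most alike profile over the 12 samples, among tested genes with a mean log2 CPM of at least 3, was found as the smallest root mean square difference of centred log2 CPM. *Bax* was nearest to *Dut* (0.113 log2), *Bbc3* to *Rhou* (0.189) and *Mcl1* to *Schip1* (0.101). *Bcl2* was nearest to *Pik3c2g* (0.172) and *Bcl2l11* to *Nudt13* (0.139). *Bcl2l1*, *Bak1*, *Bid* and *Bad*, which varied least, were nearest to *Gtf3c5*, *Bag6*, *Prcc* and *Ssr4* (0.0746 to 0.115). The nearest to *Pmaip1* was *Mcam*, at 0.655. Genes with means as low as those of *Pmaip1* and *Bcl2* themselves were outside the search.

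Other genes of the pathway were read from 6 lists. Of 9 tested genes among 15 further members of the Bcl2 family, 1 was higher and 1 lower with age in β-cells, and 4 were higher in non-β-cells. Over all tested genes, 17.9% were called in either direction in β-cells, and 11.6% were called higher in non-β-cells. The BH3-only gene *Hrk* measured 6.19 ± 0.286 CPM in 4-week β-cells, against 0.855 ± 0.272 in 8-week ones, a change of -2.86 (SE 0.392, adjusted p = 0.000327), and so fell beside *Bbc3*, and in non-β-cells its change was -1.90 (SE 0.616, adjusted p = 0.0519). *Bnip3*, a mitophagy receptor with a BH3-like stretch, rose in β-cells from 89.0 ± 21.2 to 224 ± 29.4 CPM and in non-β-cells from 49.7 ± 2.46 to 91.7 ± 7.86. *Bok*, an effector relative of *Bax*, rose in non-β-cells from 0.662 ± 0.367 to 3.27 ± 0.212 CPM, and the BH3-only gene *Bik* from 2.31 ± 0.894 to 6.86 ± 1.20, in the samples where *Pmaip1*, endothelial and mesenchymal markers were highest.

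Of 18 genes listed as p53 and its targets, the route best known to control *Bax*, *Bbc3* and *Pmaip1*, 9 were lower and 2 higher with age in β-cells (list median -0.45), and 6 were lower and 1 higher in non-β-cells (median -0.28). Among all tested genes, 9.35% were called lower in the β-cell age comparison and 17.9% in either direction. For the other fraction these shares were 4.8% lower and 11.6% higher. Median age changes of all tested genes were 0.02 (β-cells) and 0.01 (non-β-cells). *Phlda3* (-1.54) and *Plk2* (-1.17) fell most in β-cells, while *Btg2* (0.47) and *Tigar* (0.45) rose. In non-β-cells *Sesn2* (-0.81) and *Cdkn1a* (-0.77, and -0.52 in β-cells) fell most, *Btg2* fell (-0.46) and *Plk2* rose (0.40). Of these calls, *Btg2* in β-cells was lost without replicate 1 of either age (adjusted p up to 0.0698), *Tigar* without 8-week replicate 2 or 3 (up to 0.0637), and *Plk2* in non-β-cells in 7 of 17 alternatives (up to 0.192). Those 7 were scaling by total counts, sample quality weights, the compared groups alone, and the fits without 4-week replicate 1 or 2 or 8-week replicate 1 or 3. *Pmaip1*, read beside this list, went the other way in non-β-cells. Whether p53 had a part in the age changes of *Bax*, *Bbc3* or *Pmaip1* was not tested. The p53 list, like the others, was chosen with earlier results known. Of 20 regulators of BH3-only proteins and Mcl1, 5 were lower in β-cells, led by the stress factors *Atf3* (-1.21) and *Ddit3* (-0.98), and 2 in non-β-cells, *E2f1* (-1.06, lost without 8-week replicate 1 at -0.87, adjusted p = 0.0989) and *Hspa9* (-0.85), both of which were called lower in β-cells too (-0.78 and -0.28).

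The extrinsic route feeds into the mitochondrial one through *Bid*. Of 12 tested genes of the death receptor route among 13 listed, 8 were higher and none lower in non-β-cells (median 0.93). In β-cells 3 were higher and 1 lower (median 0.14). Over all tested genes, 11.6% were called higher and 4.8% lower in non-β-cells, and 17.9% in either direction in β-cells. The 8-week non-β-cells also had the highest endothelial and mesenchymal sums, and the part of those cell types was not tested. The receptor *Fas* went from 7.37 ± 2.91 to 1.25 ± 0.408 CPM in β-cells (-2.50, SE 0.468, adjusted p = 0.00283) and rose in non-β-cells (1.32, SE 0.381, adjusted p = 0.03). *Tnfaip3*, a brake on TNF signalling, rose in both fractions (0.98 and 2.82), *Mlkl*, the pore of necroptosis, rose in β-cells (1.48, a call lost without 4-week replicate 2 or 8-week replicate 2 or 3, with adjusted p up to 0.0821) and in non-β-cells (1.09, SE 0.255, adjusted p = 0.00952), and its kinase *Ripk3* rose in non-β-cells (2.31). Of 13 genes that act as or after mitochondria open, 1 was lower with age in β-cells, the outer membrane channel *Vdac1* (-0.80, SE 0.103, adjusted p = 0.000209). Of 5 tested genes of the IAP family among 8 listed as caspase inhibitors, *Birc3* rose by 1.24 in β-cells and by 2.60 in the other fraction. No other was called with age.

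Between fractions the same lists held called genes in both directions. At 4 weeks β-cells had higher *Hrk* (2.00), *Vdac1* (2.36), *Tnfrsf1a* (1.55), *Hspa9* (1.28), *Naip2* (1.09) and *Perp* (0.82) and lower *Bmf* (-0.81), *Casp6* (-1.15), *Birc2* (-0.53), *Ripk3*, *Btg2* (-3.76) and *Atf3* (-3.69). At 8 weeks they had higher *Bnip3* (1.28), *Vdac1* (1.83), *Tnfrsf1a* (0.96), *Tigar* (0.96), *Naip2* (0.87) and *Hspa9* (1.85) and lower *Bik* (-2.77), *Apaf1* (-1.41), *Birc3* (-1.13), *Tnfaip3* (-4.10), *Btg2* (-2.83) and *Atf3* (-4.86). All of these differences had an adjusted p under 0.05 by limma-voom, and 1 of them was lost when a replicate was left out, that of *Ripk3* without β-cell replicate 2 of 4 weeks (adjusted p = 0.0597). *Ripk3* passed the filter only through non-β-cells, and its 4-week β-cell samples held 2, 0 and 9 counts, so its fitted difference is not given.

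**Figure D5:**
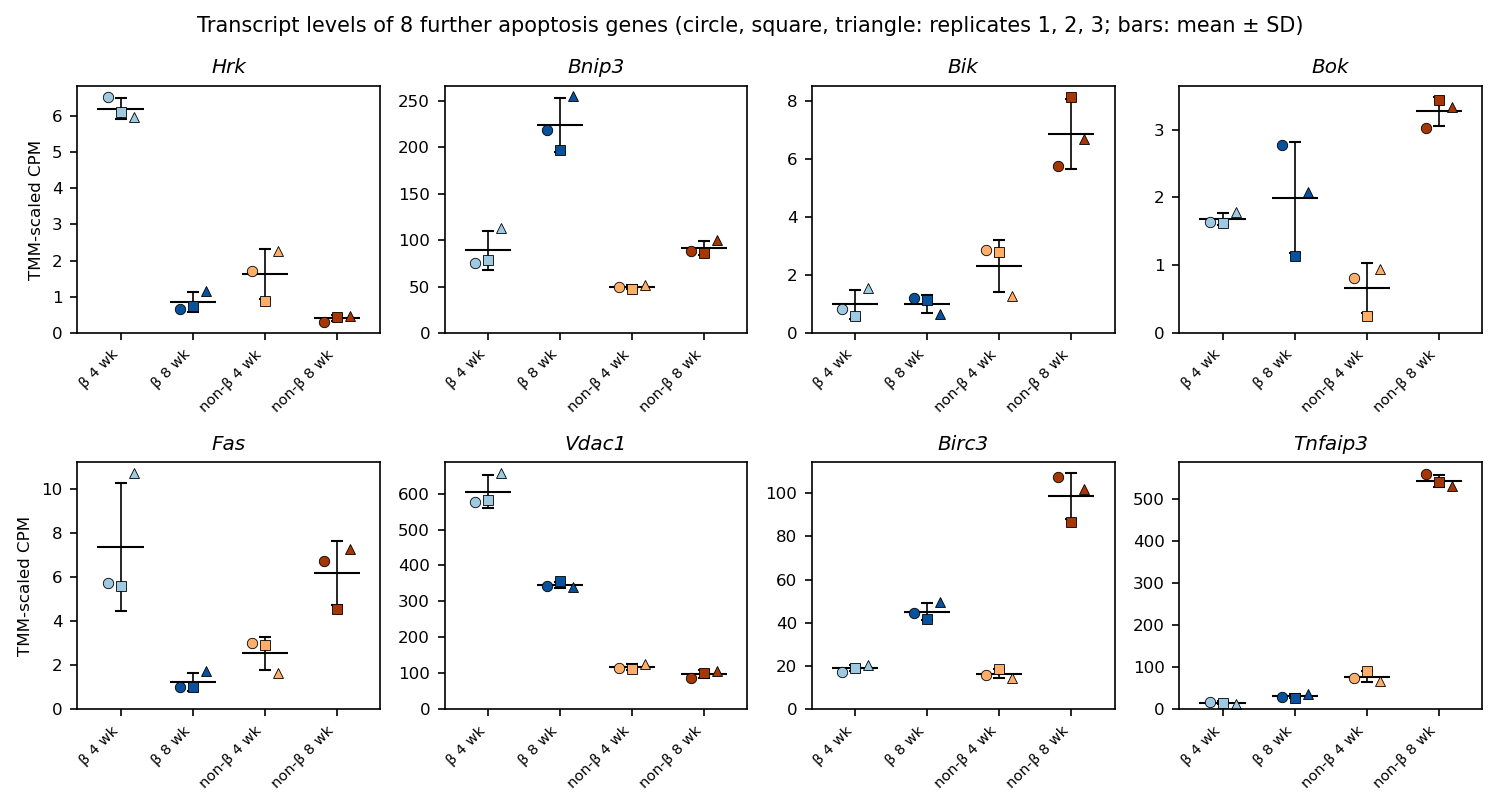
TMM-scaled CPM (vertical axes, from 0) of 8 further apoptosis genes in the 4 groups, with circles, squares and triangles for replicates 1, 2 and 3 and bars for the mean ± SD (n = 3). *Hrk* is highest in β-cells at 4 weeks, *Bik*, *Bok*, *Birc3* and *Tnfaip3* in non-β-cells at 8 weeks, and *Vdac1* goes from 605 to 347 in β-cells. *Fas* has its highest mean in β-cells at 4 weeks, where its range (5.63 to 10.7) overlaps that of non-β-cells at 8 weeks (4.56 to 7.3).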

How the data were processed

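RNA from 12 sorted islet cell samples was made into strand-specific total RNA libraries. The authors trimmed reads with fastp, assigned them with kallisto to the mouse transcriptome (GRCm38) and summed transcripts to genes with tximport, and they deposited estimated counts, which were rounded here. Genes are named and placed by the GENCODE annotation of that build (51916 of 52962 matched). Counts were scaled by TMM and tested with limma-voom (R 4.3.3, limma 3.58.1, edgeR 4.0.16), with 1 mean per group over all 12 samples and Benjamini-Hochberg adjustment over 15598 genes with a CPM above 1 in at least 3 samples. Groups came from the sample titles. Alternatives tried were DESeq2 1.42.0, the quasi-likelihood test of edgeR, other scalings and filters, sample quality weights, the compared groups alone, hormone and mitochondrial genes removed, a replicate block, and each replicate left out.

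The members and the gene lists were chosen with earlier results of these data known. All members were described in every comparison. Of each list, up to 2 higher and 2 lower called genes with the largest change and no overlap were named per age comparison, and 1 of each per other comparison. Estimated counts split reads between genes and isoforms by model, so gene totals are given and isoforms are not. On simulated counts of 15598 genes for the age comparison of β-cells, 56% of genes changed by 1 on the log2 scale and 81% of those changed by 2 were recovered, with 200 genes changed and 3 false calls among the others. Replicates differed by more than counting noise in every pair (chi-square per degree of freedom 7.94 to 94.8). Intervals of levels were not computed from counts, since reads carried no molecular identifiers. Some genes of the lists are not reported here.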

Additional observations from a re-analysis of the deposited data

Results flagged for a closer look

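The 10 members gave no result that called for a closer look, and groups of 3 samples were not searched for single outlying samples. Among the related genes named above, 8 were called for the interaction term of limma-voom (adjusted over all 15598 tested genes), and 5.13% of all tested genes were called. The named genes were picked for being called in these data, in part by this term, so their number is no support for a difference. Over the full lists, 0 of 9 further Bcl2 family genes and 0 of 13 mitochondrial pore and apoptosome genes were called. In the p53 list of 18, 2 were higher and 3 lower, and of 12 death receptor genes 4 were lower. The age change of *Fas*, the death receptor gene, was -2.50 for β-cells and 1.32 for non-β-cells, a difference of -3.83 (SE 0.60, adjusted p = 0.00261). For *Tnfaip3*, the brake on TNF signalling, the difference between fractions was -1.85 (SE 0.22, adjusted p = 0.00029), from 0.98 for β-cells and 2.82 for non-β-cells. The age change of *Plk2*, the p53 target, was -1.17 for β-cells and 0.40 for non-β-cells, a difference of -1.57 (SE 0.18, adjusted p = 0.000257). For *Birc3*, the gene of the IAP family, the difference between fractions was -1.36 (SE 0.19, adjusted p = 0.00112), from 1.24 for β-cells and 2.60 for non-β-cells. For *Atf3*, the stress factor, the difference between fractions was -1.18 (SE 0.21, adjusted p = 0.00516), from -1.21 for β-cells and -0.04 for non-β-cells. The age change of *Btg2*, the p53 target, was 0.47 for β-cells and -0.46 for non-β-cells, a difference of 0.93 (SE 0.16, adjusted p = 0.00487). For *Sesn2*, the p53 target, the difference between fractions was 0.60 (SE 0.15, adjusted p = 0.0357), from -0.21 for β-cells and -0.81 for non-β-cells. The age change of *Hspa9*, the mitochondrial chaperone gene, was -0.28 for β-cells and -0.85 for non-β-cells, a difference of 0.57 (SE 0.13, adjusted p = 0.022). The call for *Hspa9* was lost without any 1 of 7 replicates (adjusted p up to 0.0857). Those for *Fas*, *Plk2*, *Birc3*, *Atf3* and *Btg2* held in all 22 alternatives. For *Sesn2* and *Tnfaip3* the interaction was not read under the alternatives, so how far these calls hold is not known.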

How the results depend on the processing

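Of the member values under the alternatives, 857 kept direction and side of the threshold, 14 gained a call, 7 lost one and 22 changed sign, the last all for values that were never called. Scaling by DESeq2 factors or by totals moved the median of all genes by at most 0.046 in size. Members called ranged, with each replicate left out, from 1 to 2 for age in β-cells (1 without 8-week replicate 1), 2 to 3 for age in non-β-cells, 4 to 6 between fractions at 4 weeks, 5 to 5 at 8 weeks and 0 to 0 for the interaction. All genes called ranged from 1695 to 2491, 1810 to 2328, 6485 to 7808, 6214 to 6796 and 455 to 979. With sample quality weights, 4 members were called for age in β-cells (*Bcl2l1* and *Bid* were added) and 5382 of all genes (2799 without weights). Against 800 interaction calls over all genes, DESeq2 gave 1562, quality weights 2384, the replicate block 1944, and leaving out both 4-week samples numbered 3 gave 1468; the cause was not tested.

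Signs changed for *Bad* with age in non-β-cells (0.005 with DESeq2, 0.234 with weights, 0.18 without the samples numbered 3, and -0.176 to 0.196 without 1 replicate) and between fractions at 4 weeks (-0.123 to 0.281). They changed for *Bcl2l1* between fractions at 8 weeks (-0.008 with DESeq2, -0.069 with weights, -0.098 to 0.107 without 1 replicate), for *Bax* there (-0.037 with weights, -0.075 to 0.132 without 1 replicate) and for *Bak1* there (-0.308 to 0.007). With age in β-cells they changed for *Mcl1* (0.039 with weights, 0.033 without the samples numbered 3, -0.163 to 0.035 without 1 replicate) and *Bcl2l11* (-0.17 to 0.055). With age in non-β-cells they changed for *Bid* (0.09 with weights, -0.197 to 0.073 without 1 replicate) and *Bcl2* (-0.25 to 0.041), and for the interaction of *Bax* (-0.329 to 0.049).

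Same-numbered samples of the 2 fractions at 4 weeks deviated together with correlations of 0.08, 0.13 and 0.31 over all tested genes. Over the 6067 genes averaging 5 or more on the log2 CPM scale, a choice made after seeing the data, they were 0.47, 0.62 and 0.81. At 8 weeks the correlations were 0.02, 0.05 and 0.01 over all tested genes and 0.21, 0.18 and -0.17 over those 6067. The labels do not say what a number shares. At 4 weeks 1 of the 3 correlations over all tested genes was under 0.1, and not every sample correlated best with its own number, so the fit without the block is the one reported. With the replicate block *Bax* passed the threshold between fractions at 4 weeks (0.24, adjusted p = 0.0366) and with age in non-β-cells (-0.56, adjusted p = 0.0351), and no other member call changed. Depth limits *Pmaip1* and, in β-cells, *Bcl2*, which rested on 6 to 50 and 25.0 to 67.5 counts in the low groups. Some related genes were as low. *Hrk* held 14.0 to 29.1 counts in 8-week β-cells and 6.03 to 9.02 in 8-week non-β-cells. *Bok* held 5 to 21 in 4-week non-β-cells, and *Fas* 22 to 43 in 8-week β-cells.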
